A study of Mus musculus with 9 samples.

Results

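YFP-positive heart cells were set against the average of cultured cardiac stem cells and adult cardiomyocytes, to find the genes whose level in the YFP-positive cells lay outside the range spanned by the other groups. All 9 arrays of the series entered this comparison, 3 for each group, and every detected gene with 1 named probe or more was tested, 10024 genes of the 19053 with a named probe. The YFP-positive cells came from the left ventricular apex by fluorescence-activated sorting, in mice with the Gt(ROSA)26Sortm1(EYFP)Cos reporter allele (C57BL/6J background). These mice had received 1 subcutaneous dose of isoproterenol, 200 mg per kg, 28 days earlier; the drug activates beta-adrenergic receptors and damages the myocardium. A lentivirus named for c-kit and Cre had recombined the reporter in these mice. The endogenous cardiac stem cells (eCSCs) were c-kit-positive, CD45-negative cells of the same strain, harvested at passage 4 of culture. The adult cells were normal cardiomyocytes isolated from that strain. The words in vitro stand in the sample titles of the YFP-positive group although the series design has them sorted from heart tissue, and all 9 samples carry the isoproterenol treatment text; the labels settle neither point. Injury, virus, sort and heart region distinguish the YFP-positive group from the others in the design text and cannot be told apart here. No label states that replicates were separate mice or cultures; p-values here measure only how far these samples spread, and that spread may be technical. The stated question was what the new cardiomyocytes are and how far they had differentiated.

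Contractile cells of the heart are recognised by sarcomere genes, while fibroblasts, endothelial cells, mural cells and leukocytes carry marker genes of their own. Embryonic ventricles and adult atria share several myosin light chain and natriuretic peptide genes, and some of these return in the stressed adult ventricle. A contrast with the average of 2 groups is large for a gene that equals 1 group and differs from the other, so a gene was called above (below) the range only when its level in the YFP-positive cells was higher (lower) than the average, than in eCSCs and than in adult cells, each at an adjusted p under 0.05 in limma's moderated test with Benjamini-Hochberg adjustment over all 10024 genes. Levels are normalized log2 signals of 1 probe per gene, which do not rank different genes. Folds are on that scale, which adds 16 units to every signal and so understates the change of dim genes. Where a gene was detected on no array of the dimmer group, the fold is given as at least the stated value; ranks, contrasts and medians over lists use the fitted values of such genes too, which are then differences from background.

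The arrays detected between 15326 and 19048 of 45281 probes, with 19048, 16802 and 19002 on the YFP-positive arrays, 16211 to 17776 on the eCSC arrays and 15326 to 15986 on the adult arrays. On a straight line drawn between the mean eCSC profile (0) and the mean adult profile (1), the YFP-positive arrays stood at 0.753, 0.839 and 0.753. Their root mean square distance from that line was 0.939, 0.771 and 0.918 log2 units, against 0.177 to 0.258 for the other 6 arrays. YFP-positive replicate 2 thus lay nearest the line and nearest the adult end, and it received the lowest array weight (0.443). All 12 cardiomyocyte markers, among them Myh6, Myl2 and Ttn, were detected on every YFP-positive array. Their summed signal was 181645 to 202691 in YFP-positive cells, 324 to 439 in eCSCs and 206576 to 221948 in adult cells. Every YFP-positive sum was thus below every adult sum. Of the 12 markers 4 were lower than in adult cells and none higher, beside 27.7% and 22.8% of all genes. The count of lower markers was 1 to 7 across the scalings. Kit, which encodes c-kit, was detected on none of the 3 eCSC arrays.

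Against the average of both groups, 2638 genes were higher in YFP-positive cells (26.3% of those tested) and 2977 were lower (29.7%). Most of these lay between the other groups or apart from 1 of them alone. Outside the range, 974 genes lay above (9.72%) and 685 below (6.83%). The 2 sides differed in size: genes above lay a median of 1.08 log2 units (2.11-fold) beyond the nearer group, and 528 of them were at least 2-fold, 179 at least 4-fold and 79 at least 8-fold beyond it. Genes below lay a median of 0.66 log2 units (1.58-fold) beyond the nearer group, and 51 were at least 2-fold and 1 at least 4-fold beyond it. The 3 YFP-positive values lay wholly outside the 6 others for 905 of the 974 genes above and for 623 of the 685 below. The nearer group was the adult cells for 669 genes above and 499 below. Of the genes above, 191 were detected on no array of either other group. Such genes passed the detection filter through the YFP-positive cells alone and could hardly lie elsewhere, also in the gene lists. The same holds for a gene above the range that was detected on fewer than 3 arrays in each other group. Among the 6536 genes detected on all 9 arrays, 371 lay above and 671 below. YFP-positive replicate 2 lay nearest the others for 567 of the genes above and 390 of those below, and without it 996 genes lay above and 733 below. For the other groups only the differences from each remaining group were required, not the contrast with an average. This placed 3241 genes of the eCSCs above and 2715 below, and 1987 genes of the adult cells above and 1385 below. The YFP-positive cells thus held the fewest extreme genes of the 3 groups in these counts.

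The side below depended on how arrays were scaled to each other. Scaling each array by its median over all probes left 788 genes above and 126 below, and no scaling left 749 above and 53 below. Scaling on the median of the probes detected on all 9 arrays gave 973 above and 424 below. Genes above then made up 86.2%, 93.4% and 69.6% of the genes outside, against 58.7% with quantile normalization. The last of these scalings also moved the median contrast of all genes, to 0.07 from -0.09 log2 units under quantile normalization. No gene changed sides under any of these settings.

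**Figure D1:**
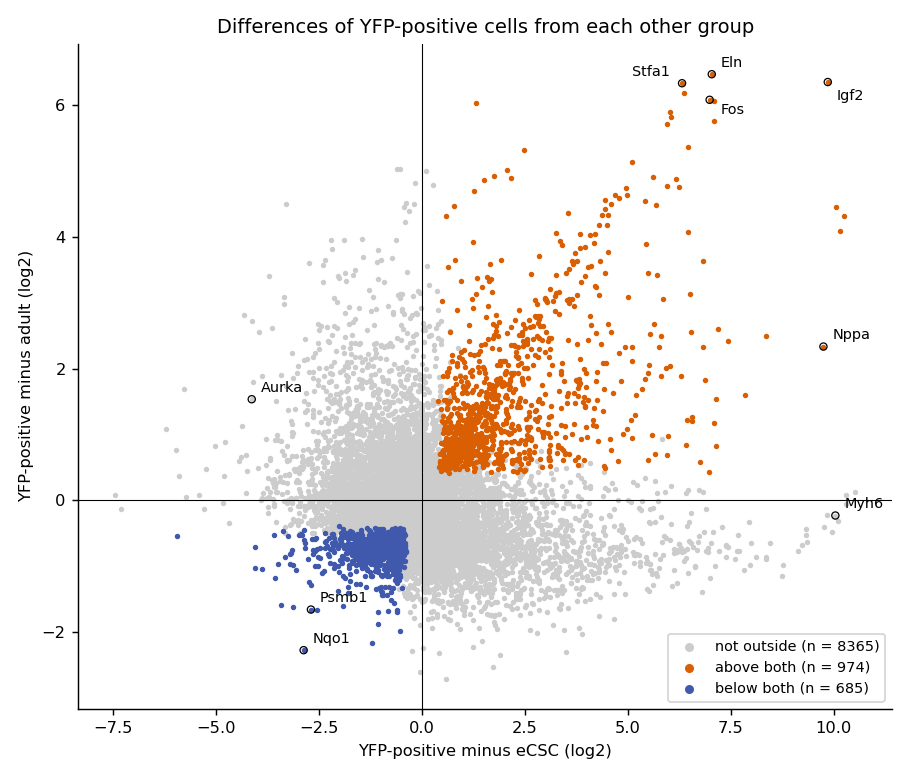
Difference of YFP-positive cells from eCSCs (horizontal axis, log2) and from adult cells (vertical axis, log2), 1 point for each of 10024 genes. The 974 genes above both groups fill the upper right and reach past 6 log2 units on both axes, while the 685 below both stay within a few log2 units of 0 on the vertical axis; both axes share the YFP-positive arrays.

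The genes farthest above the range, 15 by rule, comprised growth factors and imprinted genes, elastic fibre genes, atrial muscle genes, immediate early genes and blood cell genes. All but Igf2, S100a8, Itm2a and Mdk passed the detection filter through the YFP-positive cells alone and could hardly lie elsewhere. Eln, which encodes elastin, read 11.80, 10.90 and 11.91 in YFP-positive cells, 4.40, 4.62 and 4.48 in eCSCs and 5.11, 5.38 and 4.71 in adult cells. These levels were at least 111-fold above eCSCs and 88.8-fold above adult cells, and the contrast was 6.75 ± 0.22 log2 units (SE; adjusted p = 1.38e-11). Mfap2, a protein of the microfibrils that scaffold elastin, read 10.02, 9.71 and 9.89 in YFP-positive cells, 4.26, 4.21 and 4.30 in eCSCs and 5.47, 5.01 and 4.42 in adult cells. Both genes were low on all 6 other arrays. Itm2a, which encodes a type II membrane protein, read 10.93, 10.21 and 10.77 in YFP-positive cells, 4.58, 4.49 and 4.34 in eCSCs and 5.90, 6.03 and 5.34 in adult cells.

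Igf2, the fetal insulin-like growth factor expressed from the paternal allele, read 14.69, 14.42 and 14.64 in YFP-positive cells, 4.91, 4.64 and 4.63 in eCSCs and 8.10, 8.02 and 8.57 in adult cells, 927-fold and 81.8-fold higher (contrast 8.11 ± 0.16, adjusted p = 3.43e-13). It was detected on 3 of 3 YFP-positive arrays, 1 of 3 eCSC arrays and 3 of 3 adult arrays. Dlk1, an imprinted membrane protein of the Notch ligand family, read 11.07, 10.63 and 10.37 in YFP-positive cells and was detected on none of the 6 other arrays, where it stayed between 4.27 and 4.67. Its level exceeded the eCSC level at least 61.6-fold and the adult level at least 56.9-fold (contrast 6.27 ± 0.17, adjusted p = 4.56e-12). Ptn and Mdk encode pleiotrophin and midkine, the heparin-binding growth factors of 1 family. Ptn read 10.20, 10.20 and 10.71 in YFP-positive cells, 4.34, 4.37 and 4.25 in eCSCs and 4.91, 4.47 and 4.28 in adult cells. Mdk read 11.07, 11.04 and 11.15 in YFP-positive cells, 4.78, 5.32 and 5.30 in eCSCs and 6.18, 6.31 and 6.45 in adult cells, and 2 of its 3 detected probes lay above the range.

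A list of imprinted genes, put together after Igf2 and Dlk1 had been seen, had 8 of 12 tested members above the range and none below, beside 9.72% and 6.83% of all genes (7 to 8 above across the scalings). Its median contrast was 3.93 log2 units, against -0.09 over all genes. Mest read 8.95, 9.22 and 9.57 in YFP-positive cells and was detected on no other array. Like Dlk1, it passed the detection filter through the YFP-positive cells alone and could hardly lie elsewhere. Cdkn1c, an inhibitor of cyclin-dependent kinases, read 11.98, 11.47 and 11.68 in YFP-positive cells, 4.29, 4.25 and 4.31 in eCSCs and 8.97, 9.49 and 9.41 in adult cells. Peg3 and Grb10, a growth-restraining adaptor, lay 3.45 and 1.27 log2 units above the adult cells, and Ndn lay 0.49 above the eCSCs. Not every imprinted gene lay outside: Igf2r, the receptor that clears IGF2, differed by 0.21 from adult cells, and Gnas by -0.35 from eCSCs and 0.23 from adult cells.

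**Figure D2:**
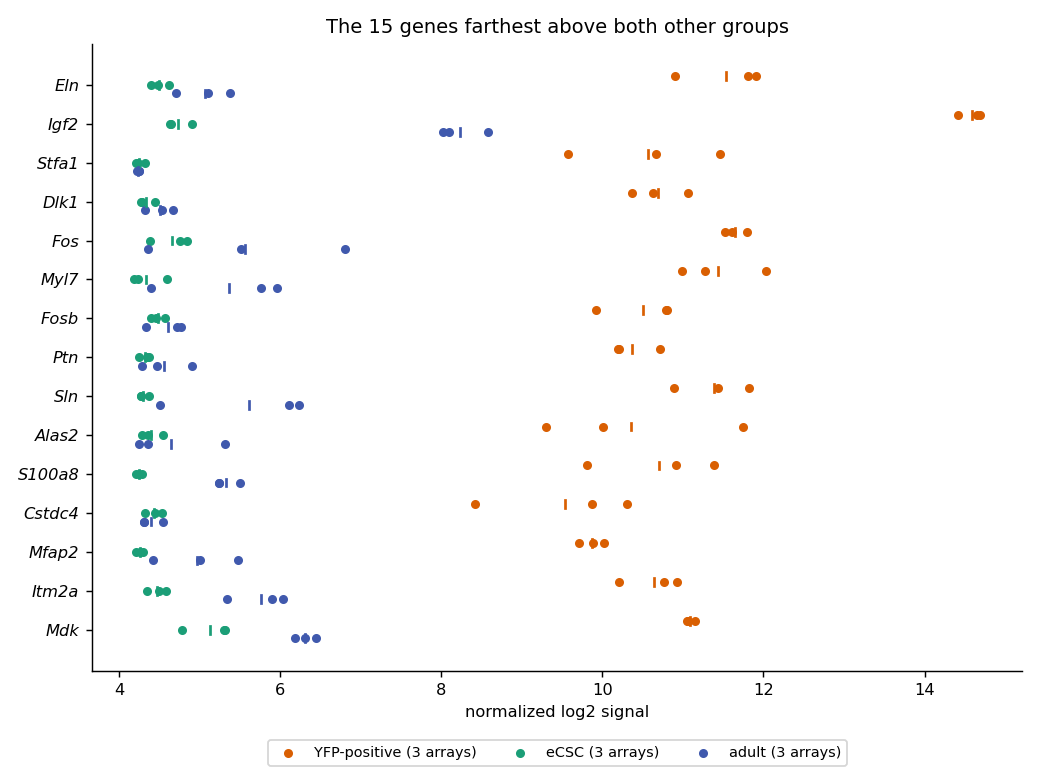
Normalized log2 signal of the 15 genes farthest above the range, 1 point per array (3 per group) and a tick at each group mean. Every YFP-positive point lies right of all 6 others of its gene; the eCSC points stay below 6 throughout, and the adult points of Igf2 stand at 8.02 to 8.57.

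Within the list of fetal and hypertrophic stress genes, 6 of 14 tested members lay above the range and none below, beside 9.72% and 6.83% of all genes, and 5 of those 6 are best known from the atria. Of the 6, Myl7 and Sln passed the detection filter through the YFP-positive cells alone and could hardly lie elsewhere. Myl7, the atrial regulatory light chain of myosin, read 11.27, 10.99 and 12.03 in YFP-positive cells, 4.23, 4.59 and 4.19 in eCSCs and 5.95, 5.76 and 4.39 in adult cells, at least 103-fold and 66.8-fold higher. Myl4, the atrial essential light chain, read 13.18, 12.56 and 13.48 in YFP-positive cells, 7.15, 6.56 and 6.76 in eCSCs and 8.83, 8.45 and 7.65 in adult cells (contrast 5.51 ± 0.25, adjusted p = 4.2e-10). Sln encodes sarcolipin, an inhibitor of the sarcoplasmic calcium pump that is abundant in atria. It read 11.43, 10.89 and 11.82 in YFP-positive cells, 4.27, 4.37 and 4.27 in eCSCs and 6.10, 6.24 and 4.51 in adult cells. Mybphl, a myosin binding protein H-like gene, was detected on no eCSC array and lay at least 33.8-fold above eCSCs and 23.4-fold above adult cells. Nppa, atrial natriuretic peptide, read 14.19, 13.76 and 14.47 in YFP-positive cells, 4.34, 4.44 and 4.39 in eCSCs and 12.17, 11.58 and 11.67 in adult cells, so that it was 5.05-fold higher than in adult cells. The sixth, Ccn2, encodes connective tissue growth factor, a secreted matricellular protein. It read 11.52, 11.38 and 12.02 in YFP-positive cells, 9.95, 9.22 and 10.08 in eCSCs and 10.34, 10.85 and 10.45 in adult cells, 1.09 log2 units above adult cells (adjusted p = 0.00226), and both of its detected probes lay above the range. Gja5 encodes the connexin 40 of atria, conduction fibres and arteries. It was the single member of 17 calcium and ion channel genes above the range, a share not above the 9.72% of all genes. Its levels were 8.07, 7.84 and 8.80 in YFP-positive cells, 4.34, 4.58 and 4.37 in eCSCs and 6.10, 6.27 and 6.80 in adult cells.

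The other 8 members of that list tested were not called outside the range, among them Nppb, Myh7, Acta1 and Ankrd1. Nppb, B-type natriuretic peptide, read 12.28, 12.29 and 11.83 in YFP-positive cells, 7.71, 7.19 and 6.91 in eCSCs and 12.35, 12.29 and 13.21 in adult cells, a difference of -0.48 ± 0.26 log2 units from adult cells (SE; adjusted p = 0.141). Myh7, the fetal ventricular myosin heavy chain, read 7.91, 6.33 and 7.40 in YFP-positive cells, 4.31, 4.23 and 4.34 in eCSCs and 7.08, 7.55 and 7.07 in adult cells (-0.02 ± 0.30 from adult cells, adjusted p = 0.966). Acta1, skeletal actin, differed from adult cells by -0.78 log2 units (adjusted p = 0.0119), as it read 11.41, 11.64 and 10.79 in YFP-positive cells, against 12.41, 11.69 and 12.08 in adult cells. Ankrd1, a stretch-responsive sarcomere protein, read 12.28, 12.44 and 12.56 in YFP-positive cells, 12.30, 12.07 and 12.40 in eCSCs and 12.68, 12.93 and 13.11 in adult cells. Tbx20 was the only one of 11 cardiac transcription factors above the range, a share not above the 9.72% of all genes. It lay 0.48 log2 units over adult cells. The call was lost without YFP-positive replicate 3, without adult replicate 1, without adult replicate 3 and with the mean of the detected probes.

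Immediate early genes, which cells transcribe within minutes of a stimulus without new protein synthesis, were above the range in 19 of 22 tested members. None lay below, and the shares over all genes were 9.72% above and 6.83% below. Of those above, Fos, Fosb and Egr2 passed the detection filter through the YFP-positive cells alone and could hardly lie elsewhere. The median contrast was 2.46 log2 units, against -0.09 over all genes. Promoters of this class are known for CArG boxes, the sites bound by serum response factor, and the upstream 250 bases and first 50 transcribed bases are shown for Fos, among the 15 genes farthest above the range, and for the pair of listed genes with a CArG box in this window. Sequences are from RefSeq (GRCm38.p6), read 5′ to 3′ on the gene's strand, and the capitals mark the box.
Fos, chr12:85473640-85473939, plus strand: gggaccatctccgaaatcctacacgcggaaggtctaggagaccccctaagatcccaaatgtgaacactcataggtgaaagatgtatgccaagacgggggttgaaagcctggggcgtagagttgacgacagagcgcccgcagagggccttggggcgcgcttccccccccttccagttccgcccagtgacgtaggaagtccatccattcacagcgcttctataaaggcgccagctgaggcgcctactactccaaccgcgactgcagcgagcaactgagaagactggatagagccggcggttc
Egr2, chr10:67537619-67537918, plus strand: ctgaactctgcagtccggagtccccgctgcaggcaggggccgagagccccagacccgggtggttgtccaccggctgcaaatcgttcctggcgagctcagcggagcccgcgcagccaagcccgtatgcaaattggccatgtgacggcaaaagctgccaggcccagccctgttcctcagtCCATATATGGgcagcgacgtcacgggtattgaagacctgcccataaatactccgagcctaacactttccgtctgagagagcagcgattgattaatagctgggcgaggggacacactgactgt
Zfp36, chr7:28379179-28379478, minus strand: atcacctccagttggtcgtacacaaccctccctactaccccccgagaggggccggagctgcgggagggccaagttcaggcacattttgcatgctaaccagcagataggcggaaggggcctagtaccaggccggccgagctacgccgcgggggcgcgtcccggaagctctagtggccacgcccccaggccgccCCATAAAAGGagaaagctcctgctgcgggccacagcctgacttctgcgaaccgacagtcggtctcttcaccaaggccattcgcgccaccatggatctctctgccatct
Promoters were given for 18 of the 22 genes, and the box, searched on both strands, stood in the promoters of 2 of these 18, beginning at -72 from the Egr2 start shown and at -58 from the Zfp36 start. Egr2 has 5 annotated starts, and this box stood in the windows of 3 of them. Counted in the same way per gene, with a gene counted once if any of its starts matched, 1.81% of all genes with a promoter and 1.84% of the genes tested held a box, against 11.1% of the 18. The cAMP response element (TGACGTCA, both strands) stood in 2 of the 18 genes, against 2.03% of all genes and 3.6% of the genes tested, and the AP-1 site (TGACTCA or TGAGTCA, both strands) in 0 of 18, against 5.95% and 4.63%. Neither of these matched inside a CArG box in the promoters shown, and a match or its absence describes these letters in this window only.

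Fos read 11.61, 11.52 and 11.79 in YFP-positive cells, 4.84, 4.38 and 4.75 in eCSCs and 6.81, 5.51 and 4.36 in adult cells (contrast 6.53 ± 0.36, adjusted p = 2.47e-09). The 3 YFP-positive arrays were close together, while the adult arrays spread over more than 2 log2 units. Fosb, its paralog, read 10.79, 9.92 and 10.80 in YFP-positive cells and was detected on no other array, at least 54.3-fold higher than in eCSCs and at least 50.1-fold higher than in adult cells. Egr1, a zinc finger factor, read 12.86, 12.61 and 12.65 in YFP-positive cells, 8.45, 6.62 and 9.57 in eCSCs and 8.36, 9.24 and 7.96 in adult cells. Egr2 read 7.74, 7.25 and 8.0 in YFP-positive cells, 4.70, 4.49 and 4.86 in eCSCs and 4.41, 4.86 and 4.50 in adult cells. Egr3 was detected on no adult array and lay 7.15-fold above eCSCs and at least 10.4-fold above adult cells. Zfp36, which encodes the mRNA decay factor tristetraprolin, read 11.43, 10.96 and 11.29 in YFP-positive cells, 6.65, 6.33 and 6.95 in eCSCs and 8.43, 9.56 and 8.04 in adult cells. In each of these 6 genes the lowest YFP-positive value exceeded the highest of the 6 other arrays.

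Of the 19 immediate early genes above the range, Fos, Fosb, Egr1, Dusp1 and Zfp36 were nearer the adult cells and all others nearer the eCSCs. Those others include Nfkbiz and Socs3, which act in inflammatory and cytokine signalling. Nfkbiz read 10.20, 9.77 and 9.91 in YFP-positive cells, 7.91, 7.22 and 7.29 in eCSCs and 4.87, 4.56 and 4.48 in adult cells. The 3 other members were not called outside the range. Klf6 lay 0.38 log2 units above eCSCs (limma, adjusted p = 0.0727), with its YFP-positive values above all others, and Ccn1 lay 0.07 above eCSCs. Myc differed by -2.50 from eCSCs, was detected on no adult array and lay at least 1.78-fold above adult cells. The count of 19 was 20 with the median of the probes detected on all arrays, and 11 both with median scaling over all probes and with no scaling. Of 11 heat shock genes 2 lay above the range, beside 9.72% of all genes: the inducible chaperones Hspa1a and Hspa1b. Both passed the detection filter through the YFP-positive cells alone and could hardly lie elsewhere. Hspa1a read 8.69, 7.71 and 9.83 in YFP-positive cells, 4.22, 4.17 and 4.25 in eCSCs and 4.41, 5.53 and 5.0 in adult cells. The mitochondrial chaperonin Hspe1 lay below both groups, by -0.66 from adult cells, a call lost without YFP-positive replicate 1, YFP-positive replicate 2 or adult replicate 1, with no filter on dim probes and under median scaling or none.

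Genes of the extracellular matrix and its remodelling lay above the range in 16 of 22 tested members, beside 9.72% of all genes. None lay below, beside 6.83% of all genes. The count above was 12 with median scaling over all probes and 11 with no scaling. Mmp2, the gelatinase that cuts collagen fragments, read 10.93, 10.38 and 10.96 in YFP-positive cells, 5.42, 5.26 and 5.11 in eCSCs and 6.87, 7.61 and 7.45 in adult cells. Thbs2, thrombospondin 2, read 9.92, 9.11 and 9.71 in YFP-positive cells, 5.86, 5.73 and 5.61 in eCSCs and 5.25, 5.59 and 5.76 in adult cells. Col4a1, a basement membrane collagen, lay 3.74 log2 units above eCSCs and 1.82 above adult cells. Fn1, fibronectin, was not called outside the range, at 0.10 log2 units from eCSCs and 5.0 above adult cells.

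Fibroblast markers lay above the range in 13 of 15 tested members, beside 9.72% of all genes (10 with no scaling). Of these, Mfap4, Tcf21 and Cthrc1 passed the detection filter through the YFP-positive cells alone and could hardly lie elsewhere. Col1a1, fibrillar collagen, read 10.29, 9.04 and 9.91 in YFP-positive cells, 7.84, 8.0 and 8.13 in eCSCs and 4.58, 5.11 and 4.78 in adult cells. Dcn, the proteoglycan decorin, read 12.78, 12.35 and 12.57 in YFP-positive cells, 4.57, 4.40 and 5.17 in eCSCs and 10.54, 11.28 and 11.06 in adult cells. Lum, Mfap5 and Tcf21, the last a transcription factor of cardiac fibroblasts, lay 2.69, 3.11 and 3.12 log2 units above adult cells, their nearer group. Ddr2 and Gsn were lower than in eCSCs, with differences of -2.59 and -2.03, and Ddr2 was detected on 1 of 3 YFP-positive arrays. The summed fibroblast signal was 9225 to 12643 in YFP-positive cells, 1094 to 1478 in eCSCs and 2271 to 3399 in adult cells. In such bulk samples a larger number of cells of 1 type and more RNA per cell cannot be told apart, and the part of other cell types in the matrix result was not tested.

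Endothelial markers lay above the range in 14 of 16 tested members, beside 9.72% of all genes (13 to 14 across the scalings). None lay below, beside 6.83% of all genes. Emcn, endomucin, read 11.14, 11.02 and 11.39 in YFP-positive cells, 4.25, 4.37 and 4.32 in eCSCs and 9.22, 9.51 and 9.35 in adult cells (contrast 4.35 ± 0.14, adjusted p = 1.88e-11). Pecam1, the junction protein CD31, read 10.34, 9.95 and 10.19 in YFP-positive cells, 4.43, 4.26 and 4.35 in eCSCs and 7.91, 8.68 and 8.24 in adult cells. Plvap, the diaphragm protein of fenestrated endothelium, stood farthest out, at 3.64 log2 units above eCSCs and 3.63 above adult cells. Kdr, the main VEGF receptor, was the exception in direction: its probe was detected on 1 of 3 YFP-positive arrays and differed from adult cells by -0.79 (adjusted p = 0.00605). The summed endothelial signal was 22149 to 22717 in YFP-positive cells, 1271 to 1330 in eCSCs and 7280 to 10112 in adult cells, and all 16 markers were detected on every adult array. Of 9 smooth muscle and pericyte genes 4 lay above, beside 9.72% of all genes. Mcam and Acta2 were among them, at 2.33 and 1.18 log2 units over adult cells. Myh11, Rgs5 and Pdgfrb were within 0.23 of adult cells.

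**Figure D3:**
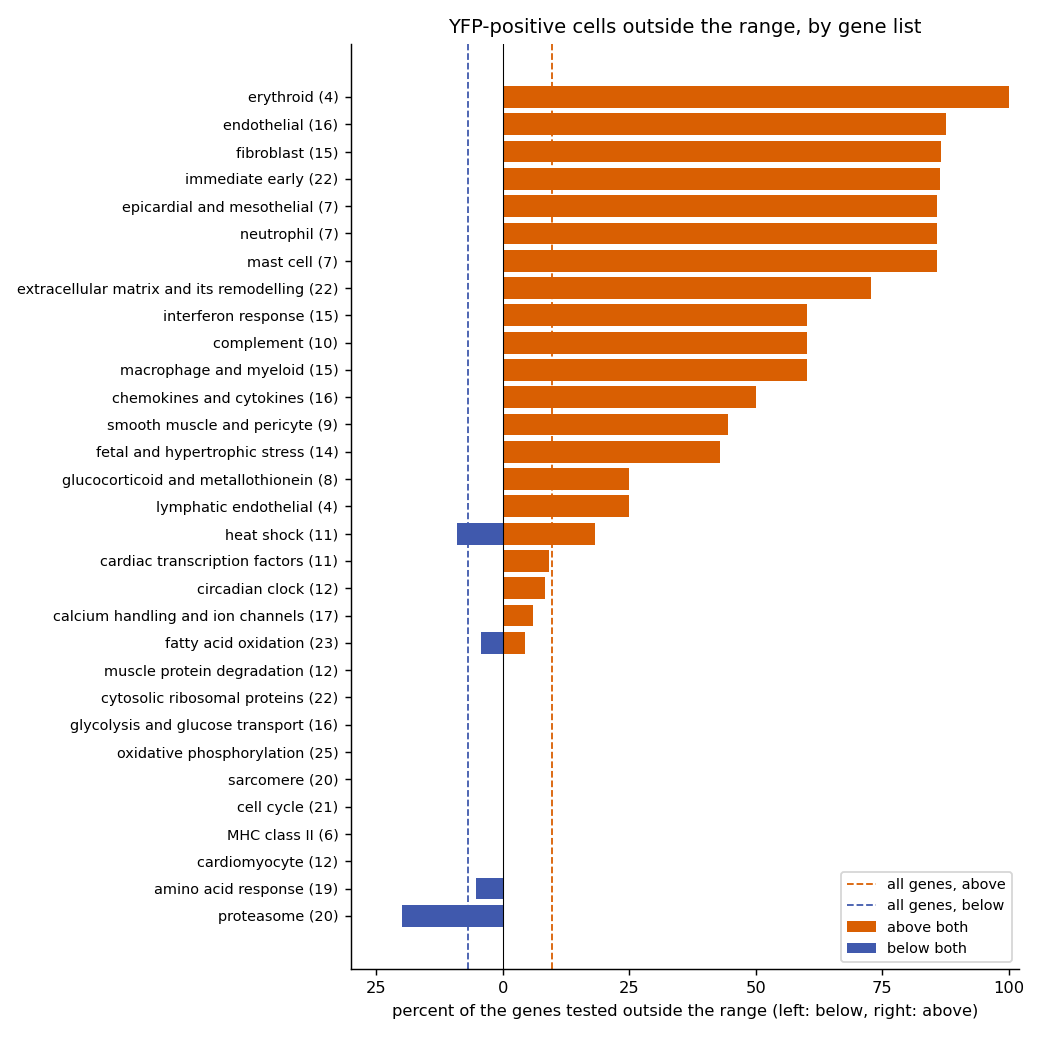
Percent of the tested genes (number in parentheses) that lay above the range (bars to the right) or below it (bars to the left); dashed lines mark 9.72% above and 6.83% below over all genes. Shown are the lists with at least 4 genes tested, which were themselves chosen with earlier results of these data known. The imprinted and the antioxidant list, put together after values of this comparison had been seen, are left out. Marker lists of non-muscle cells and the immediate early genes reach farthest right, the proteasome is the longest bar to the left of those drawn, and 8 of the lists drawn, among them sarcomere and cell cycle, have no bar.

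Erythroid genes lay above the range in 4 of 4 tested members, beside 9.72% of all genes. All but Hba-a1 passed the detection filter through the YFP-positive cells alone and could hardly lie elsewhere. Hbb-b2 lost its call with no background correction. Hba-a1, alpha globin, read 14.58, 14.88 and 14.50 in YFP-positive cells, 4.73, 4.51 and 4.54 in eCSCs and 10.68, 9.61 and 10.30 in adult cells. Alas2, the erythroid enzyme that starts haem synthesis, read 11.74, 9.30 and 10.01 in YFP-positive cells, 4.54, 4.28 and 4.36 in eCSCs and 5.31, 4.25 and 4.36 in adult cells. Slc4a1, the band 3 anion exchanger of red cells, read 10.02, 7.48 and 7.66 in YFP-positive cells and was detected on no other array. YFP-positive replicate 1 was highest for Alas2 and Slc4a1, and replicate 2 for Hba-a1. The summed erythroid signal was 24413 to 30925 in YFP-positive cells, 21 to 31 in eCSCs and 774 to 1661 in adult cells. Globin genes have near-identical copies, so that a probe may read several.

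Mast cell genes lay above the range in 6 of 7 tested members, beside 9.72% of all genes. All of these 6 but Hdc passed the detection filter through the YFP-positive cells alone and could hardly lie elsewhere. Cpa3, mast cell carboxypeptidase, read 8.52, 8.45 and 9.15 in YFP-positive cells and was detected on no other array, at least 15.6-fold and 14.4-fold higher. Cma1, a chymase, lay 3.95 log2 units above eCSCs and 3.85 above adult cells, and was detected on 1 of 3 arrays in each of these groups. Tpsb2, a tryptase, was detected on no array of either group and lay at least 5.01-fold above eCSCs and at least 4.62-fold above adult cells. Kit, the receptor that mast cells and some progenitors carry, read 8.68, 7.40 and 8.66 in YFP-positive cells, 4.17, 4.24 and 4.23 in eCSCs and 4.77, 4.76 and 4.57 in adult cells. It was detected on the 3 YFP-positive arrays alone and lay at least 11.3-fold above eCSCs and at least 10.4-fold above adult cells (contrast 3.79 ± 0.24, adjusted p = 9.37e-09). All 7 mast cell genes were detected on every YFP-positive array. Their summed signal was 1918 to 2976 in YFP-positive cells, 390 to 556 in eCSCs and 165 to 182 in adult cells. The eCSC sum includes Gata2, the member not above the range. It read 8.35, 8.51 and 9.02 in eCSCs and 8.52, 8.29 and 8.85 in YFP-positive cells. Kit, Cpa3, Mcpt4 and Tpsb2 were detected on no eCSC array. The part of the mast cell genes in the Kit result was not tested.

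Neutrophil genes lay above the range in 6 of 7 tested members, beside 9.72% of all genes. All of these 6 but S100a8 passed the detection filter through the YFP-positive cells alone and could hardly lie elsewhere. S100a8, an alarmin subunit of calprotectin, read 11.38, 9.80 and 10.91 in YFP-positive cells, 4.25, 4.21 and 4.29 in eCSCs and 5.24, 5.23 and 5.50 in adult cells. S100a9, its partner, read 9.34, 7.72 and 8.87 in YFP-positive cells and was detected on no other array. Stfa1, a stefin A that inhibits cysteine proteases, read 11.46, 9.57 and 10.67 in YFP-positive cells and stayed between 4.21 and 4.32 elsewhere; Cstdc4, of the same cystatin family, read 10.31, 8.41 and 9.88 and stayed between 4.31 and 4.55 elsewhere. Stefin A genes have close copies that 1 probe may read together. YFP-positive replicate 2 was the lowest of the 3 for all 4 of these genes. Camp and Retnlg, a cathelicidin and a resistin-like gene of neutrophils, were detected on no other array and lay at least 1.86-fold and at least 3.8-fold above the nearer group.

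Macrophage and myeloid genes lay above in 9 of 15 tested members, beside 9.72% of all genes (9 to 11 across the scalings). Of these, Tyrobp, Lyve1 and Mpeg1 passed the detection filter through the YFP-positive cells alone and could hardly lie elsewhere. Lyz2, lysozyme, read 9.45, 9.30 and 9.43 in YFP-positive cells, 4.31, 4.30 and 4.35 in eCSCs and 7.80, 8.45 and 8.28 in adult cells, and 1 of its 2 detected probes lay above. Lyve1, a hyaluronan receptor of resident macrophages and lymphatic vessels, read 7.0, 6.13 and 6.61 in YFP-positive cells and was detected on no other array. Csf1r, the macrophage colony-stimulating factor receptor, lay inside the range, at -0.19 log2 units from adult cells (adjusted p = 0.419). Cd14 lay inside it too, at -0.97 log2 units from eCSCs and 1.88 above adult cells. The summed myeloid signal was 1768 to 2255 in YFP-positive cells, 210 to 336 in eCSCs and 623 to 974 in adult cells. Complement genes lay above in 6 of 10 tested members, beside the same 9.72% of all genes. C2 was among them, at 8.61, 6.88 and 7.42 in YFP-positive cells and detected on no other array. So was Serping1, the C1 inhibitor, at 1.01 log2 units over adult cells.

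Chemokines and cytokines lay above in 8 of 16 tested members, beside 9.72% of all genes (6 to 8 across the scalings). Cxcl16 was detected on no eCSC array and lay at least 11-fold above eCSCs and 3.97-fold above adult cells. Cxcl1, a neutrophil attractant, read 11.39, 10.62 and 11.33 in YFP-positive cells, 10.28, 9.05 and 10.12 in eCSCs and 4.77, 5.62 and 4.83 in adult cells; its call was lost with median scaling and with no scaling. Cxcl10 was detected on no adult array and lay inside the range, at least 16.8-fold above adult cells and -0.20 log2 units from eCSCs. Interferon response genes lay above in 9 of 15 tested members, beside the same 9.72% of all genes (7 to 11 across the scalings). Among them were the guanylate binding proteins Gbp2 and Gbp3, at 1.41 and 1.12 log2 units over adult cells. None of 6 MHC class II genes, which present antigen on leukocytes, lay outside the range by limma, and 0 did at an unadjusted p under 0.05.

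Epicardial and mesothelial genes lay above in 6 of 7 tested members, beside 9.72% of all genes. All 6 passed the detection filter through the YFP-positive cells alone and could hardly lie elsewhere. Upk3b, a mesothelial uroplakin, read 10.42, 8.41 and 9.37 in YFP-positive cells, 5.01, 4.47 and 4.33 in eCSCs and 4.64, 5.27 and 4.50 in adult cells. The keratin gene Krt8 lay 8.67-fold above eCSCs, its nearer group, and Krt18, detected on no other array, lay at least 4.21-fold above adult cells. The summed signal of this list spread most within the YFP-positive group, from 671 to 2464, against 320 to 510 in eCSCs and 39 to 58 in adult cells. Msln, the member not above the range, differed by -1.87 log2 units from eCSCs and lay at least 3.71-fold above adult cells. It was the only member of the list detected on all 3 eCSC arrays. Mbp, the myelin protein gene, was the 1 of 3 nerve markers above the range, beside 9.72% of all genes. It read 7.31, 5.14 and 6.3 in YFP-positive cells and was detected on no other array. Mbp thus passed the detection filter through the YFP-positive cells alone, and 1 of its 2 detected probes lay above. Of the other nerve markers, Cnp differed by -0.895 log2 units from adult cells and Ncam1 by -0.102 from eCSCs. Cd79b, the single lymphocyte marker that could be tested of 12, lay above by 0.81 log2 units. This gene also passed the detection filter through the YFP-positive cells alone. Its call was lost without YFP-positive replicate 1, YFP-positive replicate 3 or eCSC replicate 2. It was also lost with no background correction, with no filter on dim probes and with no scaling. Neither the 2 adipocyte nor the 3 skeletal muscle markers tested lay outside the range by limma, also at an unadjusted p under 0.05 (0 in each). Of the remaining lists, 1 of 4 lymphatic markers lay above (Ccl21a, by 1.41 over adult cells), beside 9.72% of all genes. So did 1 of 12 clock genes (Bhlhe40, by 1.43 over adult cells), a share not above the 9.72% of all genes. Among 8 glucocorticoid-responsive genes 2 lay above, beside the same 9.72%. These were Sgk1 and Cdkn1a, both lost under median scaling over all probes and no scaling. Many members of the marker lists thus lay above the range in the same 3 libraries as the growth factor, matrix and immediate early genes. The part of these cell types in those results was not tested.

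**Figure D4:**
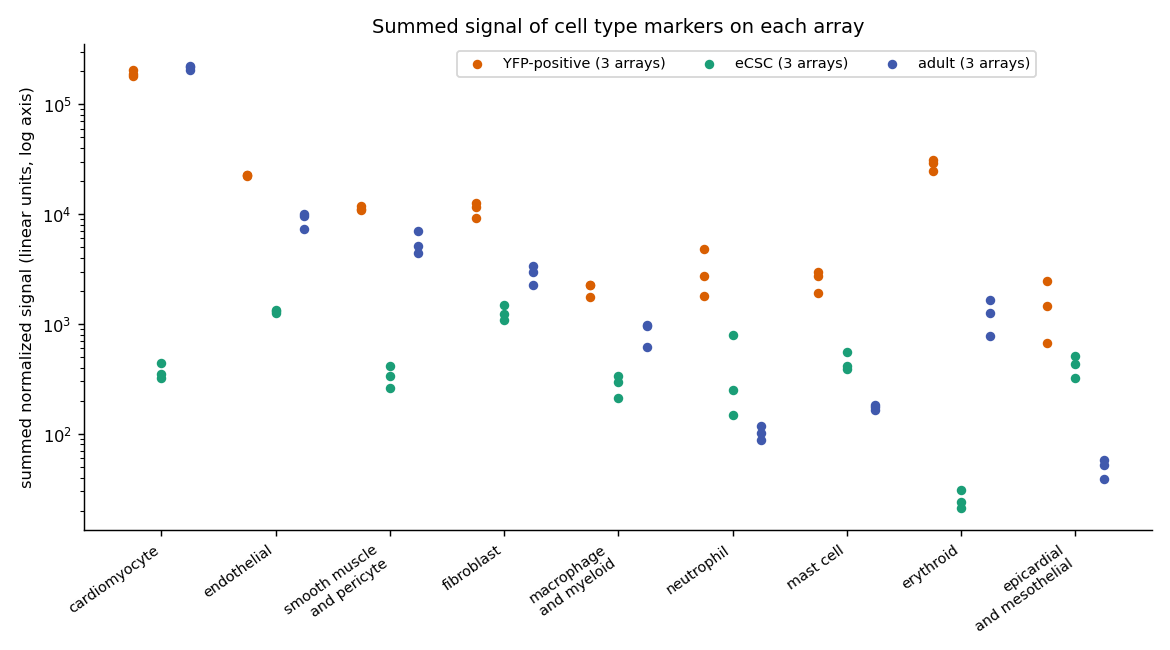
Summed normalized signal (linear units on a log axis, 16 units taken off per gene) of the tested markers of 9 cell types, 1 point per array and 3 arrays per group. The cardiomyocyte sums of YFP-positive cells, 181645 to 202691, lie just below the adult ones, 206576 to 221948, and far above those of eCSCs, and for the other 8 types each YFP-positive point lies above every point of the other groups.

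Most contractile and metabolic genes of the cardiomyocyte were not called outside the range. None of 12 cardiomyocyte markers, 20 sarcomere genes, 25 oxidative phosphorylation genes, 16 glycolysis genes, 22 cytosolic ribosomal protein genes or 12 genes of muscle protein degradation was called above or below by limma, and at an unadjusted p under 0.05 the count was also 0 for each of these lists. Myh6, the adult alpha myosin heavy chain, read 14.50, 14.49 and 14.38 in YFP-positive cells, 4.44, 4.35 and 4.46 in eCSCs and 14.50, 14.84 and 14.72 in adult cells, -0.23 ± 0.16 log2 units from adult cells (SE; adjusted p = 0.248). Of the sarcomere genes 18 of 20 were higher than in eCSCs, beside 34.4% of all genes, and 14 were lower than in adult cells, beside 27.7% of all genes (6 to 16 across the scalings). Of the oxidative phosphorylation genes 24 of 25 were higher than in eCSCs and 21 lower than in adult cells. Over all genes these shares were 34.4% and 27.7%. The list's medians were 1.53 and -0.78 log2 units, and its counts were 17 to 25 and 8 to 22 across the scalings. Fatty acid oxidation had 1 gene on each side, both dependent on the processing: Angptl4, which inhibits lipoprotein lipase, and Acot2, a mitochondrial thioesterase. Angptl4 lost its call under median scaling, under no scaling and without YFP-positive replicate 3 or eCSC replicate 2, and Acot2 under median scaling and no scaling; both lost it with no filter on dim probes.

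Cell cycle genes were intermediate. All 21 tested members were lower than in eCSCs, beside 38.6% of all genes, and 19 were higher than in adult cells, beside 22.8% of all genes, with the same counts under each scaling; none lay outside the range by limma or at an unadjusted p under 0.05 (0 of 21). Aurka, a mitotic kinase, read 6.25, 6.08 and 5.89 in YFP-positive cells, 10.62, 10.19 and 9.83 in eCSCs and 4.81, 4.35 and 4.46 in adult cells, where it was detected on no array. Cdk1 read 7.76, 7.93 and 8.48 in YFP-positive cells, 10.56, 10.22 and 10.45 in eCSCs and 4.27, 4.32 and 4.63 in adult cells. The list's median contrast of 0.03 log2 units thus combined a median of -2.03 from eCSCs with a median of 2.08 from adult cells. Amino acid response genes were likewise lower than in eCSCs, in 18 of 19 members, and 7 were higher than in adult cells. Over all genes these shares were 38.6% and 22.8%. The single gene of that list below the range, Shmt2, lost its call under median scaling, under no scaling and without YFP-positive replicate 1, YFP-positive replicate 3 or adult replicate 3, and also with no filter, no background correction, the mean of its probes and the series matrix.

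Below the range, the 15 genes farthest out were headed by Nqo1, a quinone reductase of the antioxidant response. It read 6.83, 6.94 and 6.43 in YFP-positive cells, 9.91, 9.93 and 8.99 in eCSCs and 9.04, 9.28 and 8.70 in adult cells, 7.36-fold and 4.84-fold lower (contrast -2.58 ± 0.22, adjusted p = 2.66e-07). It was the only gene below the range by 4-fold or more. Psmb1, a subunit of the proteasome core, read 8.38, 9.99 and 9.64 in YFP-positive cells, 11.92, 11.96 and 12.24 in eCSCs and 10.90, 11.15 and 10.93 in adult cells. Gchfr, which mediates feedback on GTP cyclohydrolase in tetrahydrobiopterin synthesis, read 5.26, 5.71 and 5.34 in YFP-positive cells, 8.85, 8.62 and 8.26 in eCSCs and 6.97, 6.97 and 7.21 in adult cells. Gsto1, an omega class glutathione transferase, read 10.29, 10.12 and 9.95 in YFP-positive cells, 12.60, 12.67 and 13.22 in eCSCs and 11.46, 11.62 and 11.16 in adult cells.

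Metrn, the secreted factor meteorin, read 7.54, 7.46 and 7.50 in YFP-positive cells, 10.41, 10.26 and 10.05 in eCSCs and 8.88, 8.76 and 8.60 in adult cells. Adi1, an enzyme of methionine salvage, read 7.89, 7.64 and 7.48 in YFP-positive cells, 9.56, 9.56 and 9.28 in eCSCs and 9.09, 9.06 and 8.79 in adult cells. Nqo1, Psmb1, Gchfr, Gsto1, Metrn, Adi1 and Fam185a were below the range under every setting run. Mal, the only one of the 15 nearer the eCSCs, read 5.33, 5.25 and 5.23 in YFP-positive cells, 6.47, 6.50 and 6.53 in eCSCs and 6.88, 7.82 and 7.64 in adult cells. Bdnf, a neurotrophin, read 5.39, 5.97 and 5.40 in YFP-positive cells, 9.15, 8.33 and 9.56 in eCSCs and 7.53, 7.07 and 6.91 in adult cells. The calls of Bdnf, Plpbp, Gpat3, Zfp763 and Taf1a were lost with no scaling, and those of Rnf13 and Reep6 with no scaling and with median scaling over all probes. Bdnf, Plpbp, Zfp763 and Mal also lost the call when every detected probe of the gene had to lie below.

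Proteasome genes lay below the range in 4 of 20 tested members, beside 6.83% of all genes. Besides Psmb1 these were Psmb5, Psmd11 and Psmd12, at -0.71, -0.79 and -0.67 log2 units from adult cells, and the count was 1 with median scaling over all probes, 1 with no scaling and 8 with the median of the probes detected on all arrays. Against eCSCs 18 of the 20 were lower, beside 38.6% of all genes (15 to 19 across the scalings). A list of antioxidant and glutathione genes was put together after Nqo1 and Gsto1 had been seen. Of its 19 tested members 5 lay below the range and none above, beside 6.83% and 9.72% of all genes. The count below was 2 to 5 across the scalings. Gss, glutathione synthetase, read 4.86, 5.67 and 5.47 in YFP-positive cells, 5.85, 6.3 and 7.05 in eCSCs and 5.94, 6.52 and 6.72 in adult cells. Gsta1 and Gstp1, further glutathione transferases, differed by -1.06 from eCSCs and by -0.48 from adult cells, their nearer groups. Hmox1, haem oxygenase, lay between the groups, at -0.99 log2 units from eCSCs and at least 9.62-fold above adult cells, where it was detected on no array.

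**Figure D5:**
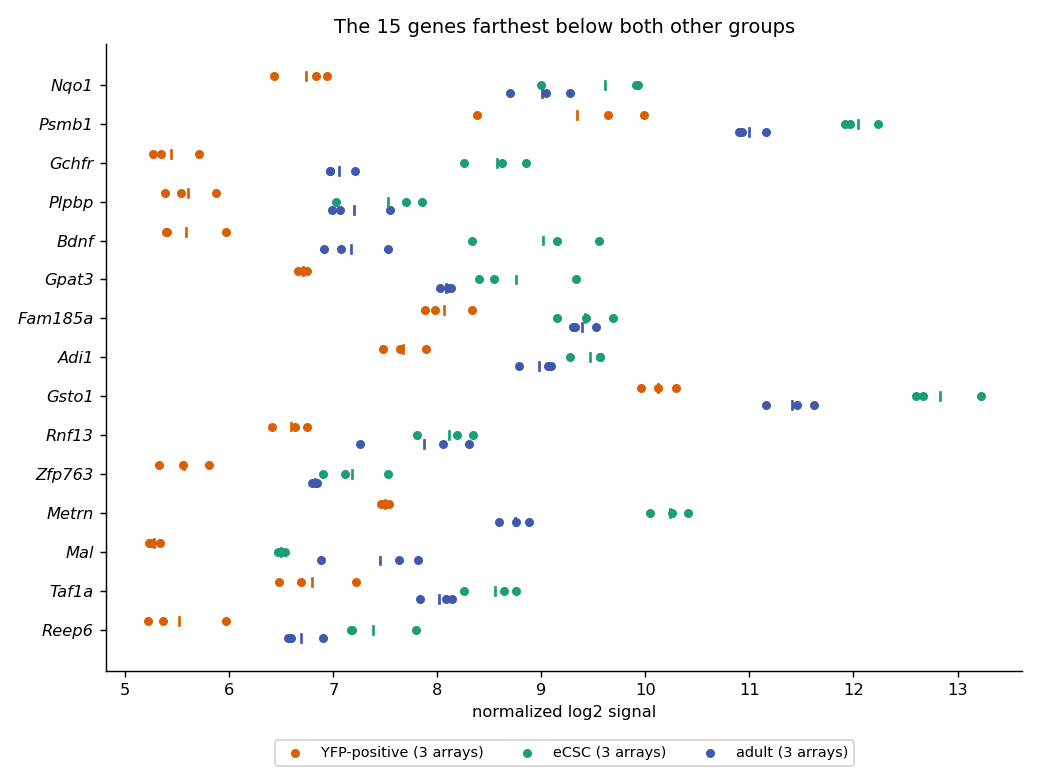
Normalized log2 signal of the 15 genes farthest below the range, 1 point per array (3 per group) and a tick at each group mean. Every YFP-positive point lies left of all 6 others of its gene, with the mean of Nqo1 4.84-fold lower than that of the nearer group, the adult cells.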

How the data were processed

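Per the labels, biotinylated cRNA from the total RNA of 9 samples was read on Illumina arrays. The authors deposited a probe-level file of 1 intensity per probe and array, neither normalized nor background corrected as its lowest signals (75 to 91.7) show. Its detection column, a p-value per the file headers, rises with the signal and is therefore a fraction, so 1 minus it was used. The deposited series matrix, on a log2-like scale, served as an alternative; lumi 2.10.0 and R 2.15.3 appear in the submitters' processing notes, and its normalization is not given in the sources used here. Its column medians were 6.655 to 6.672, and it ranked the probes of each array as the raw signals do, with scale and centring unknown.

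Signals were background corrected (normexp on the detection p-values), raised by an offset of 16 units, normalized between arrays by quantiles and converted to log2 (limma 3.58.1, R 4.3.3, version 1.17.8 of data.table, Python 3.11.15, pandas 2.3.3, matplotlib 3.10.9). Probes detected (p under 0.05) on all 3 arrays of a group were kept (18180 of 45281), and the brightest detected probe stood for a gene. Exactly 1 symbol was held by 34885 probes, several by 18 and none by 10378; symbols were updated through RefSeq (GRCm38.p6) by Entrez ID for 34807 and by accession for 11, and 67 were kept as given. One limma model with a mean per group was fitted to all 9 arrays. The script was tested on simulated data. The number of arrays limits the precision.

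Named were the 15 genes farthest outside on each side without overlap, up to 4 genes outside per list and a few genes chosen by name; other list members were added after their values were seen. Members and lists (433 of 571 genes tested) were chosen with earlier results of these data known. Replicate numbers did not pair the samples: deviations of same-numbered samples correlated between -0.064 and 0.12.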

Additional observations from a re-analysis of the deposited data

Results flagged for a closer look

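Detected probes without a single gene symbol took no part in the comparison of genes. Of these 2543 probes, 199 lay above the range of eCSCs and adult cells in the YFP-positive cells and 100 lay below, by the same rule. They are counted here because they carry signal that the named genes do not cover, and no gene is assigned to them.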

How the results depend on the processing

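Genes above the range numbered 974 and genes below 685. The number below was 126 with median scaling over all probes (71 of them shared with the 685), 424 with the median of probes detected on all 9 arrays and 53 with no scaling (27 shared). Restricting the test to the 6536 genes detected on all 9 arrays, which leaves out genes undetected in 1 group, gave 1374 genes higher in the contrast, 371 above and 671 below, and moved the share higher to 38.4% from 47%; the median of probes detected on all 9 arrays moved it to 60.3%. An adjusted p under 0.01 left 750 above and 342 below, and at least 2-fold from both groups left 528 and 51. Leaving out 1 array at a time gave 843 to 996 above, 477 to 733 below, 2380 to 2627 higher and 2490 to 3029 lower in the contrast. The fit with the replicate block, whose numbers do not pair the samples, gave 976 above and 680 below. Requiring every detected probe of a gene to lie on the same side, added after seeing the data, left 840 and 488. Among the named genes that lost the call by this rule were Mdk, Lyz2, Gbp2, Mbp, Tbx20 and Angptl4. Bdnf, Plpbp, Zfp763, Mal, Psmd12 and Shmt2 lost it too. The cause of these shifts was not tested beyond the alternatives' own construction. Of the named genes' values, 2262 kept their direction and their side of the threshold, 107 lost the call and 0 reversed. With 3 arrays a group and bead signals near background for the dim groups, folds of undetected genes are lower bounds.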

Other observations

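Transcripts of the sex chromosomes differed between and within groups, and the labels give no sex. Xist, the RNA of the inactive X, read 9.62, 10.06 and 10.08 in YFP-positive cells, 10.13, 10.73 and 10.19 in eCSCs and 8.45, 4.25 and 4.37 in adult cells. Eif2s3y, a Y-linked translation factor gene, read 5.97, 5.12 and 5.77 in YFP-positive cells, 4.25, 4.21 and 4.29 in eCSCs and 4.25, 7.44 and 7.38 in adult cells. Both were detected together on the 3 YFP-positive arrays, while each eCSC and adult array held 1 of them clearly. Neither gene lay outside the range.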
